A study of Mus musculus with 16 samples.

Results

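The 37 genes described here encode the contractile machine of smooth muscle and the cytoskeleton it pulls on, with the factors that switch those genes on. They were taken as a fixed set of gene symbols and matched to the table of 51912 Ensembl genes, where each of the 37 symbols belonged to 1 gene. Nuclear RNA was measured from the muscle layer and attached myenteric plexus of the colon of C57BL/6 mice kept under specific pathogen-free conditions. All mice had received an intravenous AAV9 vector that puts an EGFP-tagged KASH protein on the nuclear envelope under a CaMKII promoter, 5 weeks before the tissue was taken. The neuronal nuclei are those positive for EGFP in the sort, and the non-neuronal nuclei are those negative for it, so a neuron without vector expression would be counted among the non-neuronal nuclei. There were 4 groups of 4 libraries: neuronal nuclei of agonist mice, neuronal nuclei of control mice, non-neuronal nuclei of agonist mice and non-neuronal nuclei of control mice. Agonist mice received 3-methylcholanthrene, a ligand of the aryl hydrocarbon receptor (AhR), by intraperitoneal injection 14 hours before nuclei were isolated, and control mice received corn oil. The dose and the sex and age of the mice are not in the labels. Nothing in the labels tells if each library is 1 mouse or a pool of mice, so p-values measure only the spread between these samples, which may be technical. It is also not known here if neuronal and non-neuronal libraries share mice.

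Smooth muscle contracts when calcium activates myosin light chain kinase, which phosphorylates the regulatory light chain so that smooth muscle myosin can walk along actin filaments. Myosin phosphatase undoes this step, and calponin, caldesmon and transgelin sit on the actin filament. The filaments are anchored in dense bodies inside the cell and in dense plaques at the membrane, where vinculin, talin, filamin and the dystrophin complex tie them to the matrix. Most of these genes are controlled by serum response factor (SRF), which binds a short DNA element called the CArG box, together with its coactivator myocardin. The longitudinal and circular muscle of the gut wall is made of these cells, and the myenteric plexus lies between the layers.

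The CArG box was searched in the 250 bases upstream of each gene's start in the RefSeq promoter table (build GRCm38.p6). The choice of genes did not read this sequence. Most of the set is already known to be under SRF, so the shares below describe the set and are not separate support for that control. The pattern reads the same on both strands, so the search covers both. The table held 43 start windows for 32 of the 37 genes, and Myh11, Actg2, Tagln, Myocd and Nexn had no entry. A box was present in 7 of the 43 windows, from 6 of the 32 genes (18.8%), namely Srf, Myl9, Vcl, Ldb3, Filip1 and Dmd. Of all 27025 genes in the table, 1.62% had a box in a window of the same length. A box with 1 G or C in its A/T core was present in 5 of the 32 genes (15.6%), namely Acta2, Myl9, Jph2, Synm and Pdlim3, against 8.33% of all genes. A match of letters is a description and not a measured binding site.

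The following upstream sequences are shown because they carry the element through which SRF is known to act on this gene set, in genes that differ below in their levels. Capitals mark the boxes, which are exact in Srf, Vcl, Filip1, Dmd and the first box of Myl9, and hold 1 G or C in the core in the second box of Myl9 and in both boxes of Acta2. Each is written 5′ to 3′ on the strand of the gene and ends at the base before the RefSeq start. The RefSeq start used for Filip1 is internal: its window lies inside the GENCODE gene (chr9:79815051-80012851, minus strand).
Srf, chr17:46556163-46556412, minus strand: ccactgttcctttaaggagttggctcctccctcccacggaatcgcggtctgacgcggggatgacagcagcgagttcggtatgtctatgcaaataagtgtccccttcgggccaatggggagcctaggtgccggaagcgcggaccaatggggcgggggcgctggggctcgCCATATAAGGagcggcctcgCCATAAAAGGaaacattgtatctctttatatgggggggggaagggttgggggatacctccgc
Myl9, chr2:156775214-156775463, plus strand: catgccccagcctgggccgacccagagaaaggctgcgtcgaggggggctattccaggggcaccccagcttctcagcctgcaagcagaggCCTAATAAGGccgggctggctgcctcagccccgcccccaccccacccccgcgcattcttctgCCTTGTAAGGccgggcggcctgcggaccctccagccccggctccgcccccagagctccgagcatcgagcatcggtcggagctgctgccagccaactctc
Vcl, chr14:20929148-20929397, plus strand: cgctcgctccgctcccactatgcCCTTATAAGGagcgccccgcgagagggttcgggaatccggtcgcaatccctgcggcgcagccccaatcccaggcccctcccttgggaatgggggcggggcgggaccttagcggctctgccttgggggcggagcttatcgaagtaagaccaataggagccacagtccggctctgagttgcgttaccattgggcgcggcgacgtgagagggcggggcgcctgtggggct
Filip1, chr9:79977883-79978132, minus strand: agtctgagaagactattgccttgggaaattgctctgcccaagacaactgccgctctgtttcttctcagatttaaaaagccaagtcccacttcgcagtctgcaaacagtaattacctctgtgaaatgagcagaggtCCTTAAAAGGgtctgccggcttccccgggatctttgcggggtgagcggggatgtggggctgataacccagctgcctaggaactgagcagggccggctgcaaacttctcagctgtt
Dmd, chrX:82948620-82948869, plus strand: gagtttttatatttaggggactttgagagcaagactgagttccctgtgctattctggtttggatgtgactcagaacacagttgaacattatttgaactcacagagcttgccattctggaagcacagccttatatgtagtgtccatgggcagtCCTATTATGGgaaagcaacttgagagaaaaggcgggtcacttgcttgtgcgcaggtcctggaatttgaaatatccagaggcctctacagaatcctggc
Acta2, chr19:34255374-34255623, minus strand: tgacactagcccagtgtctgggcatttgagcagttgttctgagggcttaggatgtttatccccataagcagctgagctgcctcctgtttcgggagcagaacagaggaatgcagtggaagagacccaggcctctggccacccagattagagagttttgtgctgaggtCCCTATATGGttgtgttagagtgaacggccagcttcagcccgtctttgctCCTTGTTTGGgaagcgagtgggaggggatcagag

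Libraries held between 2663738 and 4902303 counts. The summed level of 12 neuronal marker genes was 2759 to 4825 CPM (counts scaled to the library total) in neuronal agonist and 3152 to 3491 CPM in neuronal control libraries, against 47.3 to 337 CPM in non-neuronal agonist and 129 to 431 CPM in non-neuronal control libraries. The ranges of the labelled populations stood far apart on these markers. The share of counts from mitochondrially encoded genes was 42.8%, 33.3%, 21.8% and 10.3% in non-neuronal agonist libraries 1 to 4, 11.2%, 14.3%, 26.3% and 16.1% in non-neuronal control libraries and 1.77% to 6.11% in neuronal libraries. Non-neuronal control library 4 stood apart for the genes described here. Its level was above the median of the other 3 libraries of its group for all 36 members other than Sgca, by a median ratio of 2.74. Non-neuronal agonist library 3 was above in 31 of the same 36, with a median ratio of 1.96.

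The summed level of the 37 genes was on average higher in non-neuronal libraries. Levels are given from here on as CPM after TMM scaling over the 16 libraries, unless library size is named. The members summed to 5562, 4369, 4387 and 4197 CPM in neuronal agonist libraries 1 to 4, and to 4316, 4826, 5123 and 6018 CPM in neuronal control libraries. In non-neuronal agonist libraries the sum was 9666, 13696, 24677 and 16571 CPM, and in non-neuronal control libraries it was 15910.4, 13127, 12951 and 36681 CPM. On this scale every neuronal library was below every non-neuronal one. By library size the sum in non-neuronal agonist library 1, the library with the highest mitochondrially encoded share, was 5218 CPM, below 6 of the 8 neuronal libraries, and the other 7 non-neuronal libraries, at 8527 to 36569 CPM, were above all 8 neuronal ones. In bulk samples, fewer cells of a type and less RNA per cell cannot be told apart.

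**Figure D1:**
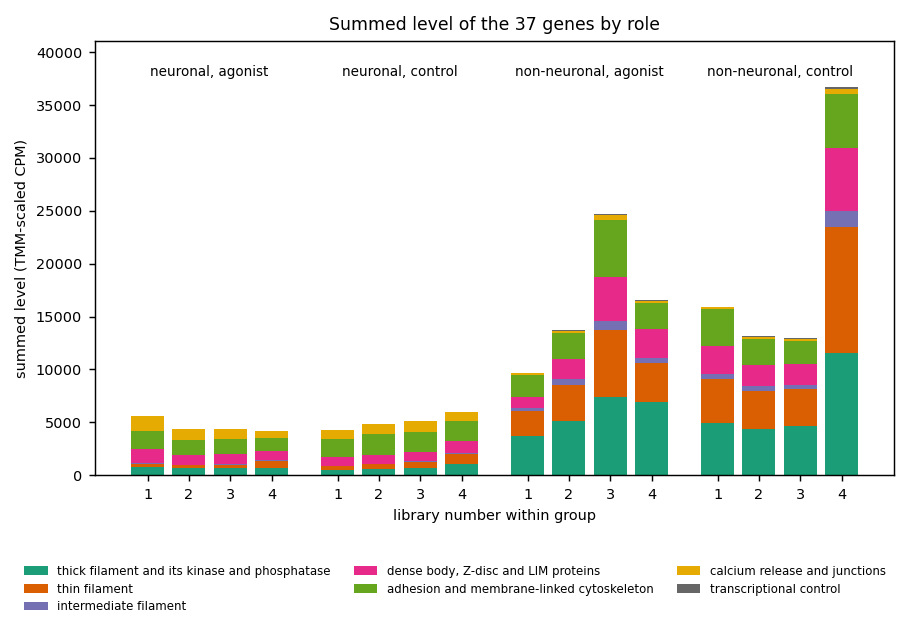
Summed level of the 37 genes in each library, in TMM-scaled CPM, with bars stacked by the role of the genes and libraries grouped by population and treatment. The 8 neuronal bars lie between 4197 and 6018 CPM and the 8 non-neuronal bars between 9666 and 36681 CPM, the highest being control library 4.

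Genes were compared between neuronal and non-neuronal nuclei with edgeR's quasi-likelihood test on rounded expected counts, and a gene was called where its p, adjusted by Benjamini-Hochberg over all genes tested, was under 0.05. In agonist mice 22 of 35 members tested were lower in neuronal nuclei, 1 was higher and 12 were not called. Of all 14065 genes tested there, 6.97% were called lower and 6.67% higher, and 13.6% either way. In control mice 28 of 36 members tested were lower in neuronal nuclei, 1 was higher and 7 were not called, against 13.5% of 15285 genes called lower, 11.8% called higher and 25.4% either way. The median log2 fold change of the members, neuronal over non-neuronal, was -2.70 in agonist and -2.93 in control mice, beside -0.15 and -0.11 over all genes tested. The neuronal libraries lay wholly below the non-neuronal ones for 20 members in agonist mice and 28 in control mice, where 9.96% and 15.5% of all genes tested did so. They lay wholly above for 2 members in each treatment, Ryr2 and Itga8, where 11.7% and 15.1% of all genes did. The filter on low counts left out Sgca in both treatments and Jph2 in agonist mice, and a gene with counts in 1 population only passes that filter through that population. The 28 lower members of control mice include Jph2, which had 10 counts in neuronal libraries and passed through its non-neuronal counts. Myocd (5, 0, 3 and 20 counts in neuronal control libraries 1 to 4), Ldb3 (5, 6, 11 and 22), Pgm5 (5, 8, 30 and 80) and Lmod1 (7, 21, 30 and 40) also needed theirs. Among the lower members of agonist mice this held for Lmod1 (1, 5, 11 and 19 counts in neuronal agonist libraries), Tagln (1, 39, 37 and 57) and Smtn (21, 51, 4 and 92). Such members could be tested only because of their non-neuronal level.

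**Figure D2:**
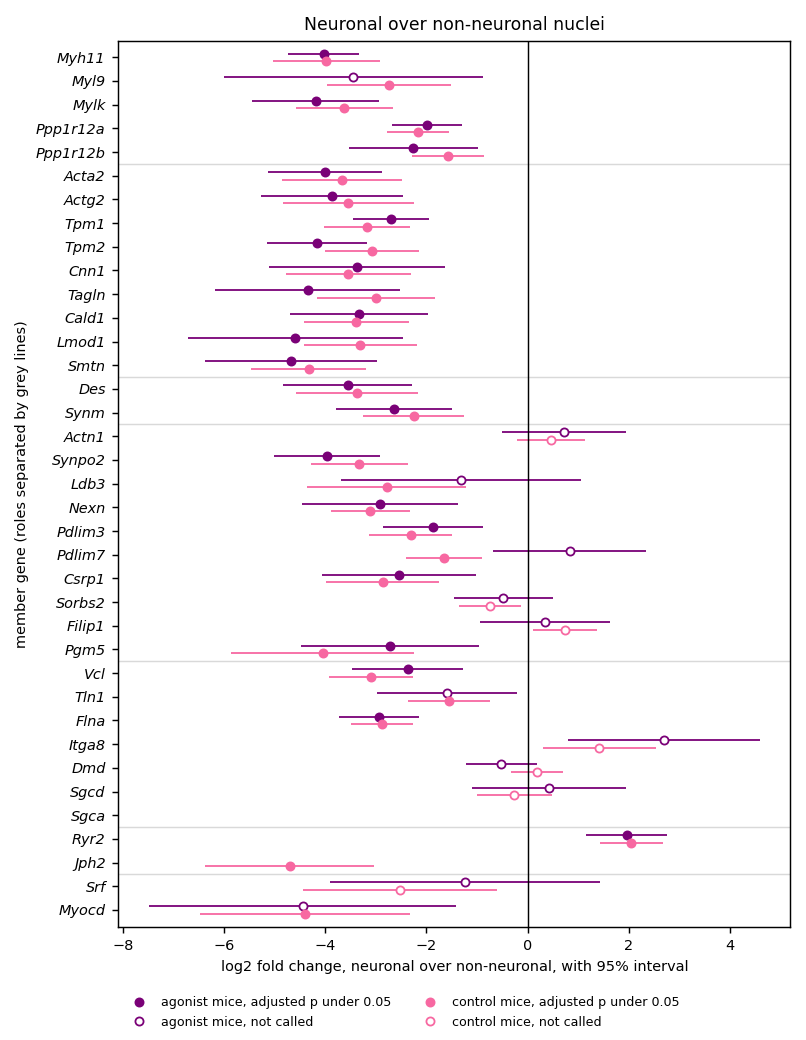
Log2 fold change of each member, neuronal over non-neuronal nuclei, with its unadjusted 95% interval, in agonist mice and in control mice. Filled points have an adjusted p under 0.05. The myosin, actin and filament genes lie between -4.68 and -1.57, while Ryr2 lies at 1.96 and 2.05 and Dmd at -0.52 and 0.18. Sgca in both treatments and Jph2 in agonist mice were not tested.

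Myosin and the enzymes that act on its light chain were lower in neuronal nuclei for 4 of 5 genes in agonist mice and 5 of 5 in control mice. Myh11 (chr16:14194535-14291372, minus strand, GENCODE M21 on GRCm38), the smooth muscle myosin heavy chain, had 186, 178, 137 and 265 CPM in neuronal agonist libraries 1 to 4, against 2268, 3217, 4272 and 2643 CPM in non-neuronal agonist libraries. In control mice Myh11 had 87.2, 159, 204 and 443 CPM in neuronal libraries, against 2716, 2747, 2669 and 6853 CPM in non-neuronal ones. No neuronal library came near the non-neuronal range, and the log2 fold change was -4.03 (SE 0.33, adjusted p = 1.03e-05) in agonist and -3.98 (SE 0.49, adjusted p = 8.40e-05) in control mice. Mylk, the kinase of the light chain, had 12.1, 40.5, 13.8 and 60.5 CPM in neuronal agonist libraries, against 279, 509.9, 694 and 841 CPM in non-neuronal ones. The control libraries had 31.9, 44.6, 49.1 and 94.4 CPM of Mylk in neuronal nuclei, against 468, 444, 546 and 1413 CPM in non-neuronal nuclei. The groups did not overlap in either treatment, at -4.19 (SE 0.59, adjusted p = 0.000385) and -3.62 (SE 0.45, adjusted p = 8.54e-05).

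The regulatory light chain Myl9 was thinly counted and uneven among neuronal agonist libraries, at 0, 0.876, 8.05 and 43.8 CPM, against 43.5, 115, 208 and 216 CPM in non-neuronal agonist libraries. Neuronal library 4 reached the level of non-neuronal library 1, and the log2 fold change of -3.45 (SE 1.20, adjusted p = 0.0731) was not called. Of the 8 settings with 1 library left out, only that without neuronal library 4 called it, at -5.60, and the weakest value was -3.01. In control mice Myl9 had 18.9, 12.3, 13.5 and 47.3 CPM in neuronal libraries, against 67.7, 89.7, 162 and 335 CPM in non-neuronal ones, and was lower, at -2.74 (SE 0.56, adjusted p = 0.00285). Ppp1r12a and Ppp1r12b are the myosin phosphatase subunits that target the enzyme to myosin. Mean Ppp1r12a in neuronal nuclei was 25.8% and 21.0% of that in non-neuronal nuclei in agonist and control mice, while Myh11 was 6.18% and 5.96%. Ppp1r12b had 135, 222, 244 and 120.4 CPM in neuronal agonist libraries, against 221, 309, 661 and 2207 CPM in non-neuronal ones, and these groups overlapped. The neuronal mean was 21.2% of the non-neuronal mean, and 45.4% without non-neuronal library 4. In control mice it was 31.6%, and 43.6% without non-neuronal control library 4. Both subunits were called lower in both treatments, with log2 fold changes between -2.26 and -1.57.

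All 9 genes of the thin filament were lower in neuronal nuclei in both treatments, with neuronal means of 3.87% to 15.6% of the non-neuronal mean in agonist mice and 4.67% to 11.8% in control mice. Acta2, alpha smooth muscle actin, had 17.6, 13.1, 19.98 and 39.1 CPM in neuronal agonist libraries, against 188, 263, 596 and 400.3 CPM in non-neuronal agonist libraries. In control mice it had 35.1, 34.9, 27.6 and 102 CPM in neuronal libraries, against 438, 424, 366 and 1472 CPM in non-neuronal ones. The ranges were apart in both treatments, at log2 fold changes of -4.01 (SE 0.53, adjusted p = 0.000214) and -3.67 (SE 0.55, adjusted p = 0.000316). Actg2, the enteric gamma actin of smooth muscle, had 18.4, 20.4, 17.6 and 71.6 CPM in neuronal agonist libraries, against 103, 405, 794 and 582 CPM in non-neuronal ones. The control libraries had 30.1, 46.4, 46.6 and 129 CPM in neuronal nuclei, against 542, 472, 286 and 1821 CPM in non-neuronal nuclei. Neuronal library 4 was the highest of its group in both treatments and still below every non-neuronal library, at -3.87 (SE 0.66, adjusted p = 0.00137) in agonist mice and -3.54 (SE 0.60, adjusted p = 0.00077) in control mice.

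Among the proteins that bind actin filaments, Tagln (transgelin) had 0.252, 8.54, 9.60 and 15.8 CPM in neuronal agonist libraries, against 118, 98.4, 293 and 197 CPM in non-neuronal ones, and 11.8, 12.6, 14.7 and 44.7 CPM in neuronal control libraries, against 156, 95.4, 112 and 348 CPM in non-neuronal control libraries. It was lower in neuronal nuclei, at -4.35 (SE 0.86, adjusted p = 0.00368) and -2.996 (SE 0.54, adjusted p = 0.00115). Of the 75-base windows in Tagln transcripts, 53.3% also occur in another gene, nearly all in the antisense gene Gm48529, and the strand setting of the counting is not given in the sources used here, so reads of this pair cannot be told apart. Cnn1 (calponin) had 3.02, 5.91, 17.1 and 59.7 CPM in neuronal agonist libraries, against 131, 136, 421 and 213 CPM in non-neuronal ones. In control mice it had 13.4, 27.2, 17.9 and 56.0 CPM in neuronal nuclei, against 219, 215, 175 and 802 CPM in non-neuronal nuclei. The groups were apart in both treatments, at -3.37 (SE 0.82, adjusted p = 0.0123) and -3.54 (SE 0.57, adjusted p = 0.000596).

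Lmod1 (leiomodin), which nucleates actin filaments, had 0.252, 1.09, 2.85 and 5.27 CPM in neuronal agonist libraries, against an even 62.0, 66.8, 53.1 and 46.8 CPM in non-neuronal ones. Its control values were 1.83, 5.39, 7.25 and 10.5 CPM in neuronal nuclei, against 53.5, 53.7, 70.3 and 85.7 CPM in non-neuronal nuclei. The log2 fold changes of Lmod1 were -4.59 (SE 1.00, adjusted p = 0.00649) and -3.30 (SE 0.52, adjusted p = 0.000472). Smtn (smoothelin), which marks contractile smooth muscle, was the member with the lowest neuronal share of this group, at -4.68 (SE 0.79, adjusted p = 0.00137) in agonist and -4.33 (SE 0.53, adjusted p = 7.90e-05) in control mice. Its neuronal libraries had 1.04 to 25.5 CPM with agonist, against 140.1 to 459 CPM in non-neuronal agonist libraries, and 5.24 to 21.2 CPM with corn oil, against 151 to 506 CPM in non-neuronal control libraries. The tropomyosins Tpm1 and Tpm2, which wind along actin, and caldesmon (Cald1) were also called lower, with log2 fold changes between -4.16 and -2.70 in agonist mice and between -3.38 and -3.08 in control mice.

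**Figure D3:**
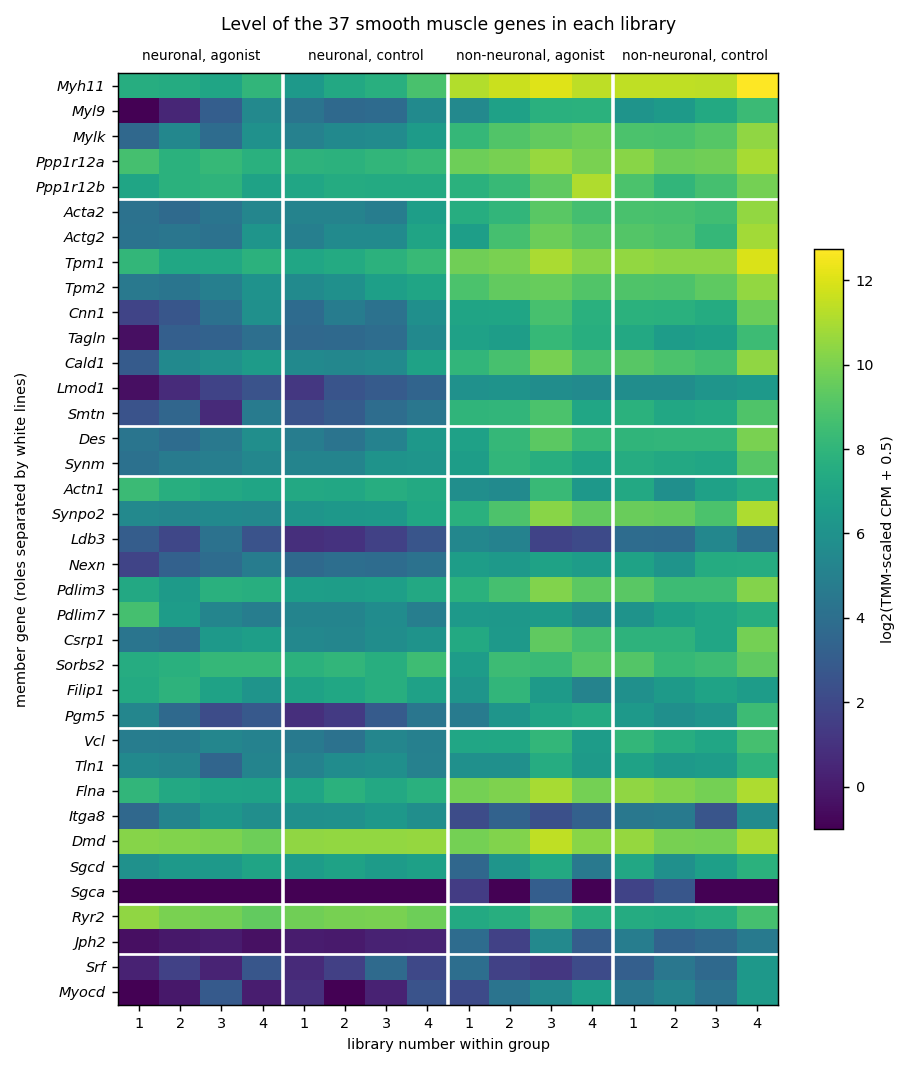
Level of every member in each of the 16 libraries as log2(TMM-scaled CPM + 0.5), with genes in rows ordered by role and libraries in columns by group. Most filament genes are darker in neuronal columns than in the non-neuronal columns of the same treatment, whereas Dmd and Ryr2 are bright in the 8 neuronal columns. Non-neuronal control library 4 is the brightest column for Myh11 (6853 CPM) and Tpm1 (3957 CPM).

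Both intermediate filament genes were lower in neuronal nuclei. Des (desmin), the intermediate filament protein of muscle, had 19.9, 14.0, 23.4 and 54.4 CPM in neuronal agonist libraries, against 116, 289, 626 and 289.8 CPM in non-neuronal ones. In control mice Des had 28.0, 19.0, 33.1 and 81.3 CPM in neuronal nuclei, against 253, 264, 265 and 997 CPM in non-neuronal nuclei. No neuronal library reached a non-neuronal one, at log2 fold changes of -3.56 (SE 0.60, adjusted p = 0.00127) and -3.38 (SE 0.56, adjusted p = 0.000675). Synm (synemin), which links desmin filaments to the membrane, was lower, at -2.64 (SE 0.54, adjusted p = 0.00459) and -2.25 (SE 0.46, adjusted p = 0.00283).

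The 10 genes of dense bodies, Z-discs and LIM proteins were mixed. In agonist mice 5 were lower in neuronal nuclei and 5 were not called, and in control mice 7 were lower and 3 were not called. Synpo2 (myopodin), an actin-bundling protein of Z-discs and dense bodies, had 44.1, 39.4, 45.2 and 41.6 CPM in neuronal agonist libraries, against 211, 473, 1281 and 697 CPM in non-neuronal ones. In control mice it had 70.4, 80.5, 85.1 and 146 CPM in neuronal nuclei, against 776, 713, 455 and 2110.0 CPM in non-neuronal nuclei. The groups were apart, at -3.97 (SE 0.49, adjusted p = 0.000144) and -3.32 (SE 0.44, adjusted p = 0.000151). Nexn (nexilin), Pdlim3 (ALP), Csrp1 (a LIM protein that binds actinin) and Pgm5 (aciculin, of dense plaques) were also called in both treatments, with log2 fold changes between -2.92 and -1.88 in agonist mice and between -4.05 and -2.31 in control mice.

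The members of this role that were not called in either treatment were Actn1, Sorbs2 and Filip1. Actn1, an actinin that many cell types use to cross-link actin, had 335, 193, 157 and 134 CPM in neuronal agonist libraries, against 54.8, 47.8, 315 and 80.3 CPM in non-neuronal ones. In control mice Actn1 had 156, 153, 188 and 164 CPM in neuronal nuclei, against 154, 57.4, 116 and 185 CPM in non-neuronal nuclei. The neuronal level was within or above the non-neuronal range, at 0.72 (SE 0.58, adjusted p = 0.49) and 0.46 (SE 0.31, adjusted p = 0.328). Without non-neuronal agonist library 3, the highest of its group, Actn1 was called higher in neuronal nuclei of agonist mice, at 1.70. It was not called there with any other library left out, where values went down to 0.42. Sorbs2, an adaptor of adhesion sites and Z-discs, averaged 241 ± 53.5 CPM in neuronal agonist and 332 ± 192 CPM in non-neuronal agonist libraries (SD, n = 4 each), with -0.48 (SE 0.46, adjusted p = 0.573) and, in control mice, -0.75 (SE 0.29, adjusted p = 0.0729). Filip1, which binds filamin, averaged 149 ± 71.2 CPM in neuronal agonist and 115 ± 102 CPM in non-neuronal agonist libraries (SD, n = 4 each), with 0.33 (SE 0.60, adjusted p = 0.793) and, in control mice, 0.74 (SE 0.29, adjusted p = 0.0814). The control values were called without 1 non-neuronal control library, at -0.93 for Sorbs2 without library 2 and at 0.96 for Filip1 without library 3. With any other library left out they were not called, and the weakest values were -0.47 for Sorbs2 and 0.55 for Filip1.

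Ldb3 and Pdlim7 were called lower in neuronal nuclei of control mice and were not called in agonist mice. Ldb3 (ZASP or Cypher), a Z-disc protein of striated muscle, had 7.81, 3.28, 17.4 and 5.27 CPM in neuronal agonist libraries, against 40.8, 33.4, 2.88 and 3.70 CPM in non-neuronal ones. Its control values were 1.31, 1.54, 2.66 and 5.75 CPM in neuronal nuclei, against 14.2, 13.5, 40.4 and 16.1 CPM in non-neuronal nuclei. The log2 fold change was -1.31 (SE 1.11, adjusted p = 0.519) in agonist mice and -2.79 (SE 0.73, adjusted p = 0.0124) in control mice, and without the 2 non-neuronal agonist libraries over 30% mitochondrially encoded counts the agonist value was 1.44. Pdlim7 (enigma) had 406, 95.9, 38.2 and 27.5 CPM in neuronal agonist libraries, against 87.3, 78.5, 87.9 and 51.9 CPM in non-neuronal ones. In control mice Pdlim7 had 35.9, 35.9, 50.5 and 29.3 CPM in neuronal nuclei, against 67.2, 112, 138 and 188 CPM in non-neuronal nuclei. Neuronal agonist library 1 alone was above every other library, and its removal brought the agonist value of 0.83 (SE 0.71, adjusted p = 0.52) to -0.47, while the control value was -1.65 (SE 0.35, adjusted p = 0.00345). The difference of these comparisons between treatments was 1.64 (SE 1.32, adjusted p = 0.818) for Ldb3 and 2.63 (SE 0.84, adjusted p = 0.445) for Pdlim7, which was 1.17 without neuronal agonist library 1, and neither passed the threshold.

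Among the genes of adhesion and the membrane-linked cytoskeleton, 2 of 6 tested were lower in neuronal nuclei of agonist mice and 3 of 6 in those of control mice. Vcl (vinculin) was lower, at -2.37 (SE 0.51, adjusted p = 0.00642) in agonist and -3.09 (SE 0.38, adjusted p = 8.98e-05) in control mice, and so was Flna (filamin A), at -2.94 (SE 0.37, adjusted p = 0.00016) and -2.87 (SE 0.28, adjusted p = 1.87e-05). Of the 75-base windows of Vcl, 24.9% also occur in Ap3m1, so its counts may be divided. Tln1 (talin), which couples integrins to actin, had 46.1, 37.2, 10.6 and 36.4 CPM in neuronal agonist libraries, against 60.1, 58.2, 184 and 89.1 CPM in non-neuronal ones, and 34.0, 51.8, 57.8 and 32.2 CPM in neuronal control libraries, against 122, 86.3, 96.9 and 245 CPM in non-neuronal control libraries. It was not called in agonist mice at -1.59 (SE 0.65, adjusted p = 0.128) and was lower in control mice at -1.56 (SE 0.38, adjusted p = 0.00759).

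Dmd (chrX:82948870-85206141, plus strand), dystrophin, was read at a high level in neuronal nuclei. Its neuronal agonist libraries had 1222, 1144, 1051 and 846 CPM, against 925, 1118, 2752 and 1273 CPM in non-neuronal agonist libraries. In control mice Dmd had 1417, 1483, 1483 and 1507 CPM in neuronal nuclei, against 1519, 980.2, 948 and 2075 CPM in non-neuronal nuclei. The neuronal libraries lay inside the non-neuronal range in control mice and overlapped it in agonist mice, at log2 fold changes of -0.52 (SE 0.33, adjusted p = 0.354), with a 95% interval from -1.22 to 0.18, and 0.18 (SE 0.24, adjusted p = 0.64), with an interval from -0.33 to 0.69. The intervals of Myh11, Acta2 and Actg2 had upper bounds of at most -2.25, below the lower bounds of Dmd.

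The sarcoglycans join dystrophin at the membrane. Sgcd, the delta form, had 60.7, 83.0, 86.9 and 128 CPM in neuronal agonist libraries, against 11.3, 70.9, 165 and 22.9 CPM in non-neuronal ones. In control mice it had 97.7, 118, 94.0 and 113 CPM in neuronal nuclei, against 152, 58.9, 109 and 220.3 CPM in non-neuronal nuclei. The groups overlapped, at 0.42 (SE 0.71, adjusted p = 0.776) and -0.26 (SE 0.34, adjusted p = 0.636). Sgca, the alpha form known from striated muscle, had no count in any of the 8 neuronal libraries, while non-neuronal libraries 1 to 4 held 6, 0, 31 and 0 counts with agonist and 10, 16, 0 and 0 counts with corn oil. In each treatment 2 of the 4 non-neuronal libraries were therefore at 0 like the neuronal ones, and the counts are too few for a comparison.

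Itga8, the integrin alpha 8 chain, lay the other way. It had 11.8, 36.3, 77.1 and 54.9 CPM in neuronal agonist libraries, against 4.16, 9.48, 4.71 and 9.03 CPM in non-neuronal ones. In control mice Itga8 had 58.1, 62.3, 79.8 and 55.7 CPM in neuronal nuclei, against 22.2, 24.4, 5.68 and 48.7 CPM in non-neuronal nuclei. Every neuronal library was above every non-neuronal library of its treatment, but the log2 fold changes of 2.69 (SE 0.89, adjusted p = 0.0582) and 1.42 (SE 0.52, adjusted p = 0.0613) just missed the threshold. DESeq2 called Itga8 higher in both treatments, at 2.697 and 1.40. The test used here called it at 3.04 without neuronal agonist library 1 and at 1.99 without non-neuronal control library 4. It did not call Itga8 with any other library left out, where values went down to 2.36 in agonist and 1.13 in control mice.

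The genes of calcium release were split. Ryr2 (chr13:11553102-12106945, minus strand), the ryanodine receptor that releases calcium from the endoplasmic or sarcoplasmic reticulum and that is known in heart, smooth muscle and neurons, was the member called higher in neuronal nuclei. It had 1426, 1007, 948 and 683 CPM in neuronal agonist libraries, against 161, 199, 473 and 202 CPM in non-neuronal ones. In control mice Ryr2 had 863, 959.9, 989.9 and 844 CPM in neuronal nuclei, against 173, 162, 191 and 413 CPM in non-neuronal nuclei. The lowest neuronal library was above the highest non-neuronal one in each treatment, at 1.96 (SE 0.38, adjusted p = 0.00309) and 2.05 (SE 0.29, adjusted p = 0.000221). Jph2 (junctophilin 2), which holds that reticulum close to the plasma membrane of muscle cells, had at most 0.519 CPM in neuronal agonist and 0.784 CPM in neuronal control libraries, against 14.0, 2.71, 43.4 and 7.87 CPM in non-neuronal agonist and 28.1, 9.39, 12.3 and 24.3 CPM in non-neuronal control libraries. It was called lower in neuronal nuclei of control mice (adjusted p = 0.000647), with 10 counts in neuronal and 255 counts in non-neuronal libraries, so no fold is given. Jph2 was not tested in agonist mice.

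Both genes of transcriptional control were counted thinly in neuronal nuclei. Myocd held 31 and 28 counts in neuronal agonist and control libraries, against 684 and 572 in non-neuronal ones. Srf held 39 and 80 counts, against 70 and 435. Myocd (myocardin), the coactivator that defines smooth and cardiac muscle, had 0, 0.438, 7.01 and 0.555 CPM in neuronal agonist libraries, against 3.78, 19.0, 41.8 and 109 CPM in non-neuronal ones. In control mice Myocd had 1.31, 0, 0.725 and 5.23 CPM in neuronal nuclei, against 22.2, 36.4, 17.9 and 88.0 CPM in non-neuronal nuclei. The log2 fold change was -4.45 (SE 1.43, adjusted p = 0.0509) in agonist mice, which just missed the threshold, and -4.40 (SE 0.96, adjusted p = 0.00413) in control mice. Without neuronal agonist library 3, which held the highest neuronal value, the agonist value was called, at -6.87, and it was also called without non-neuronal agonist library 1, at -4.84, or 2, at -4.70. The agonist value was not called with any other library left out, and the weakest was -3.41. Srf, which many cell types use, had 0.756, 2.63, 0.779 and 5.83 CPM in neuronal agonist libraries, against 15.1, 2.71, 1.83 and 3.94 CPM in non-neuronal ones, and 1.05, 2.57, 12.8 and 3.40 CPM in neuronal control libraries, against 8.28, 21.0, 12.3 and 80.3 CPM in non-neuronal control libraries. It was not called in either treatment, at -1.24 (SE 1.25, adjusted p = 0.603) and -2.53 (SE 0.89, adjusted p = 0.0528). The control value was called without neuronal library 3, at -3.60, without non-neuronal library 1, at -2.83, and without non-neuronal library 3, at -2.75. It was not called in the other settings with 1 library left out, and the range over all 8 was from -3.60 to -1.36.

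Dmd and Ryr2, a pair chosen after the values were seen, took 44.7% ± 5.72 of the members' counts in neuronal agonist and 47.7% ± 6.05 in neuronal control libraries, against 10.7% ± 1.85 in non-neuronal agonist and 8.73% ± 1.57 in non-neuronal control libraries (SD, n = 4 each). The other 35 members summed to 2547 ± 307 CPM in neuronal agonist and 2684 ± 703 CPM in neuronal control libraries, against 14377 ± 5421 and 18052 ± 10816 CPM in non-neuronal agonist and control libraries (SD, n = 4 each). Per kilobase of exon, the highest mean level in non-neuronal nuclei was that of Myh11 with agonist, at 408 ± 115 CPM per kb, and of Actg2 with corn oil, at 501 ± 451 CPM per kb, with Myh11 next at 493 ± 273. In neuronal nuclei Dmd had the highest mean per kilobase, at 44.8 ± 6.82 CPM per kb with agonist and 61.9 ± 1.62 CPM per kb with corn oil. Ryr2 was number 4 there with agonist, at 35.3 ± 10.7 CPM per kb, and number 5 with corn oil, at 31.8 ± 2.49 CPM per kb. Dmd and Ryr2 have 23801 and 28790 bases of exon, against 1557 for Actg2, and the shares of counts above are not scaled for length. Most neighbours in these orders overlapped: the libraries of adjacent genes were apart in 1 place of the order in neuronal agonist nuclei, in 2 places in neuronal control nuclei and in none in non-neuronal nuclei.

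Summed markers of other cells were also lower in neuronal libraries, except that the ranges of striated muscle genes overlapped in agonist mice. The summed level (library size) of 8 pericyte markers, mural cells that share contractile genes with smooth muscle, was 26.2 to 169 CPM in neuronal agonist and 34.7 to 185 CPM in neuronal control libraries, against 173 to 1131 CPM and 391 to 2058 CPM in the non-neuronal ones. Of the pericyte markers, Vtn was at 0 in all neuronal libraries and Kcnj8 in those of agonist mice, and 4 of 6 tested in agonist and 3 of 5 tested in control mice were called lower in neuronal nuclei. The 6 fibroblast markers summed to 9.92 to 23.9 CPM and 16.8 to 76.9 CPM in neuronal agonist and control libraries, against 203 to 964 CPM and 259 to 1608 CPM in non-neuronal ones, with 5 of 5 and 6 of 6 tested called lower. Of all genes tested, 6.97% and 13.5% were called lower. The 20 genes of striated muscle summed to 70.7 to 171 CPM and 103 to 122 CPM in neuronal agonist and control libraries, against 115 to 914 CPM and 375 to 2902 CPM in non-neuronal ones, where 6 of 20 and 4 of 20 were at 0 in all neuronal libraries of a treatment. Epithelial markers summed to 4.28 to 32.4 CPM and 15.8 to 99.7 CPM in neuronal agonist and control libraries, against 830 to 3476 CPM and 1511 to 10874 CPM in non-neuronal ones. The markers of glia, interstitial cells of Cajal, endothelium and macrophages also had their highest neuronal sum below their lowest non-neuronal sum, and those of mesothelium were at 0 in all neuronal agonist libraries. Of the striated muscle genes, 1 of 4 tested in agonist mice (25%) and 7 of 8 in control mice (87.5%) were called either way. Of the glia markers, 1 of 4 (25%) and 2 of 3 (66.7%) were called, so these shares rest on few genes. For all genes these shares were 13.6% and 25.4%. The lists of interstitial cells of Cajal, endothelium, macrophages and epithelium had 66.7% to 100% called. The part of these cells, and of mitochondrially encoded RNA, in the differences of the smooth muscle genes was not tested.

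Lists of related genes, chosen like the members with earlier results known, put the set in its pathway. Their counts stand beside the 13.6% of all genes in agonist mice and the 25.4% in control mice that were called either way. Of 23 further filament and dense plaque genes tested, 11 were lower and 0 higher in neuronal nuclei of agonist mice, and 17 were lower and 1 higher in those of control mice, which is 47.8% and 78.3% called, with medians of -2.32 and -2.13. The higher one was Parva (alpha-parvin), at 0.80 (SE 0.26, adjusted p = 0.0348). Fblim1 (migfilin) was called lower in agonist mice (adjusted p = 0.00163), with 2 counts in the 4 neuronal libraries together, against 626 counts in the non-neuronal ones, so no fold is given. The integrin Itga5 was lower in agonist mice at -5.76 (SE 1.27, adjusted p = 0.0108). In control mice the largest changes were those of the integrin Itga1, at -4.92 (SE 0.72, adjusted p = 0.000287), and Pdlim1, at -4.79 (SE 0.51, adjusted p = 3.05e-05). Of the non-muscle actomyosin genes 3 of 5 were lower in agonist mice, led by the cytoplasmic actins Actb at -3.21 (SE 0.39, adjusted p = 0.00013) and Actg1 at -3.04 (SE 0.54, adjusted p = 0.00182). In control mice 3 of 6 were lower, with Actb at -3.002 and Actg1 at -2.51. The shares called were 60% and 50%, and the medians of that list were -2.00 and -2.23.

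Of 17 receptors, channels and calcium stores tested in agonist mice 2 were lower, 1 was higher and 14 were not called, and of 18 tested in control mice 5 were lower, 4 higher and 9 not called. The shares called were 17.6% and 50%, with medians of -0.65 and -0.71. Kcnmb1, the beta subunit of the calcium-activated potassium channel of smooth muscle, was lower in neuronal nuclei at -6.05 (SE 1.34, adjusted p = 0.00725) and -4.79 (SE 0.76, adjusted p = 0.00051), with 14 and 37 counts in the neuronal agonist and control libraries. Htr2b, a serotonin receptor, was higher in neuronal nuclei of agonist mice at 3.54 (SE 0.61, adjusted p = 0.00149), averaging 274 ± 68.3 CPM in neuronal libraries, against 22.9 ± 17.9 CPM in non-neuronal libraries (SD, n = 4 each). It was higher in control mice too, at 2.77 (SE 0.37, adjusted p = 0.000151). Oxtr, the oxytocin receptor, was higher in control mice at 3.94 (SE 1.06, adjusted p = 0.0147), where the non-neuronal libraries held 7 counts in all. Also higher in control mice were the channel subunits Cacna2d1 at 1.06 (SE 0.31, adjusted p = 0.0222) and Kcnma1 at 1.15 (SE 0.29, adjusted p = 0.00955).

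Of the dystroglycan complex and caveolae genes, 3 of 13 were lower in agonist mice and 5 of 13 were lower and 1 higher in control mice, which is 23.1% and 46.2% called, with medians of -0.64 and -1.86. The higher one was the sarcoglycan Sgcb, at 1.79 (SE 0.60, adjusted p = 0.0426). Among the caveolar genes, Cav1 was called lower in agonist mice (adjusted p = 0.00218), with 8 counts in the neuronal libraries in all, so no fold is given. Cavin1 was at -6.08 (SE 1.17, adjusted p = 0.00306) in agonist mice, with 16 counts in the neuronal libraries in all. In control mice Cav1 was at -4.66 (SE 0.73, adjusted p = 0.000471) and Cavin2 at -3.50 (SE 0.61, adjusted p = 0.000897). Of the other transcriptional regulators of smooth muscle, 1 of 9 was lower in agonist and 5 of 12 in control mice, which is 11.1% and 41.7%, with medians of -0.52 and -1.17. These included Foxf1, a factor of the gut mesenchyme, at -4.63 (SE 1.47, adjusted p = 0.0484) in agonist mice, with 12 counts in neuronal and 276 counts in non-neuronal libraries. In control mice Foxf1 was called with 2 counts in neuronal and 280 counts in non-neuronal libraries (adjusted p = 0.00131) and Gata6 with 2 and 162 counts (adjusted p = 0.00175), so no fold is given for them. No gene of these lists was called in the comparisons of agonist with control mice described next.

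The response to the AhR agonist was compared within each population. In non-neuronal nuclei 0 of 36 members tested were called, where 2 of 14846 genes (0.0135%) were, namely Cyp1a1, the classic AhR target, and Serpina3n. DESeq2 called 0 members too, and 1 member, Srf, had an unadjusted p under 0.05. The median log2 fold change of the members, agonist over control, was -0.29, beside 0.13 over all genes tested, with 28 values below 0 and 8 above. The groups overlapped for all 36 members, where 2.17% of all genes tested lay wholly lower and 1.25% wholly higher with agonist. Over all genes 715 had an unadjusted p under 0.05, and DESeq2 called 140.

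Myh11, Actg2 and Des had agonist values inside or below the spread of the controls in non-neuronal nuclei. Myh11 ranged from 2268 to 4272 CPM with agonist, against 2669 to 6853 CPM with corn oil, and its log2 fold change was -0.23 (SE 0.34, adjusted p = 0.986) with a 95% interval from -0.95 to 0.50. Actg2 ranged from 103 to 794 CPM with agonist, against 286 to 1821 CPM with corn oil, at -0.69 (SE 0.60, adjusted p = 0.976), with an interval from -1.99 to 0.61. Des was at -0.39 (SE 0.52, adjusted p = 0.983), with an interval from -1.49 to 0.71. All 3 values turned positive without non-neuronal control library 4, at 0.24 for Myh11, 0.17 for Actg2 and 0.39 for Des, so the sign rests on that library. Srf had the smallest unadjusted p at -2.32 (SE 1.07, adjusted p = 0.954), with 15.1, 2.71, 1.83 and 3.94 CPM with agonist, against 8.28, 21.0, 12.3 and 80.3 CPM with corn oil. Its groups overlapped. Myocd was at 0.12 (SE 0.86, adjusted p = 0.993), with an interval from -1.70 to 1.95. Beside these values, the striated muscle genes summed (library size) to 115 to 914 CPM with agonist, against 375 to 2902 CPM with corn oil, the epithelial markers to 830 to 3476 CPM, against 1511 to 10874 CPM, and the fibroblast markers to 203 to 964 CPM, against 259 to 1608 CPM. Mitochondrially encoded genes took 10.3% to 42.8% of counts with agonist, against 11.2% to 26.3% with corn oil. The part of these in the values of the members was not tested.

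**Figure D4:**
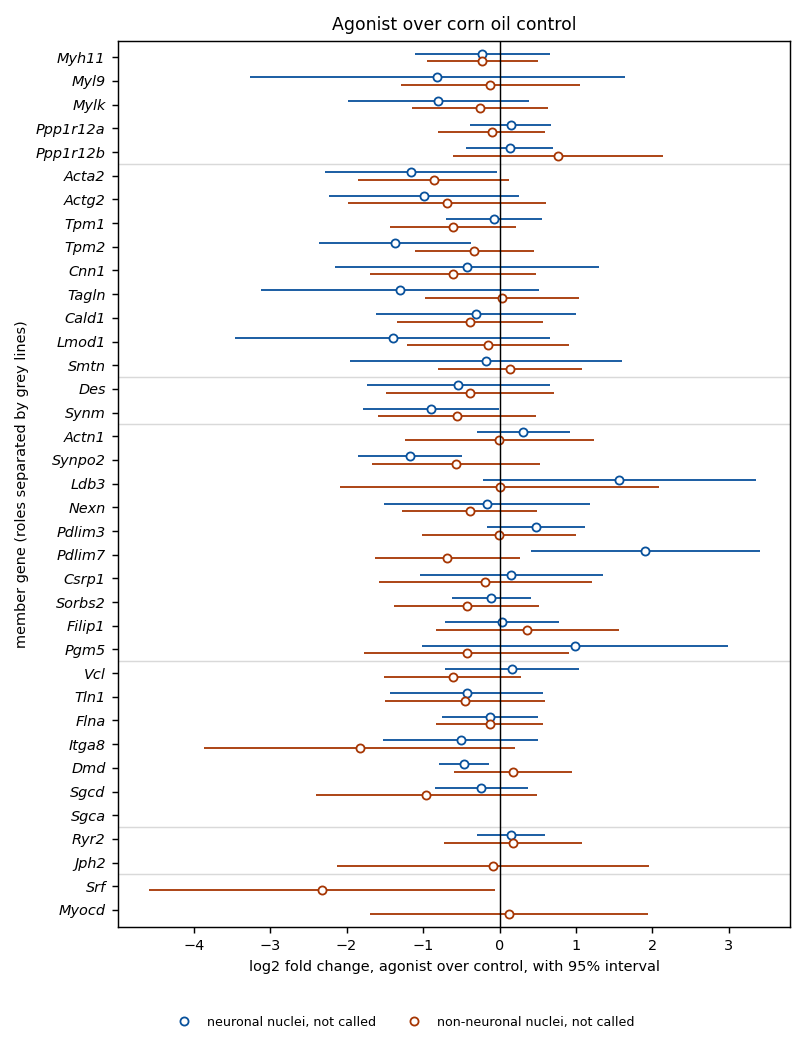
Log2 fold change of each member, agonist over corn oil control, with its unadjusted 95% interval, in neuronal and in non-neuronal nuclei. Open points were not called. No member is filled in either population, and the medians are -0.23 in neuronal and -0.29 in non-neuronal nuclei.

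In neuronal nuclei 0 of 33 members tested were called with agonist, where 0 of 14182 genes (0%) were. DESeq2 called 0 members too, and 6 members had an unadjusted p under 0.05, where 711 of the 14182 genes did. The median log2 fold change of the members was -0.23, beside 0.08 over all genes tested, and 22 values were below 0 and 11 above. DESeq2 called 24 of all genes. Myh11 had 186, 178, 137 and 265 CPM with agonist, against 87.2, 159, 204 and 443 CPM with corn oil, at -0.23 (SE 0.41, adjusted p = 0.97), with a 95% interval from -1.11 to 0.65. Actg2 was at -0.99 (SE 0.57, adjusted p = 0.903), with an interval from -2.23 to 0.26, and Des at -0.54 (SE 0.55, adjusted p = 0.944), with an interval from -1.74 to 0.66. Without neuronal control library 4 the values of Myh11 and Des turned positive, at 0.35 and 0.06. Srf and Myocd were too thinly counted in neuronal nuclei to be tested.

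The 6 members with an unadjusted p under 0.05 were named after their values were seen. Their log2 fold changes were -1.16 for Acta2, -1.36 for Tpm2, -0.90 for Synm, -1.17 for Synpo2, -0.47 for Dmd and 1.91 for Pdlim7, each with an adjusted p of 0.903. The value of Pdlim7 rests on neuronal agonist library 1 and was 0.51 without it. That of Acta2 was -0.53 without neuronal control library 4. Synpo2 and Dmd were the 2 members whose groups did not overlap, where 2.16% of all genes tested lay wholly lower with agonist. Synpo2 had 44.1, 39.4, 45.2 and 41.6 CPM with agonist, against 70.4, 80.5, 85.1 and 146 CPM with corn oil. Dmd had 1222, 1144, 1051 and 846 CPM with agonist, against 1417, 1483, 1483 and 1507 CPM with corn oil. Beside them, the neuronal marker sum (library size) was 3576 ± 884 CPM with agonist and 3364 ± 153 CPM with corn oil (SD, n = 4 each), and the epithelial markers, which lie outside the muscle layer, summed to 4.28 to 32.4 CPM with agonist, against 15.8 to 99.7 CPM with corn oil.

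The agonist response did not differ detectably between neuronal and non-neuronal nuclei for any member. In a fit over all 16 libraries 0 of 36 members tested were called, where 0 of 18566 genes (0%) were, and DESeq2 called 0 members and 150 of all genes. An unadjusted p under 0.05 was found for 1484 of all genes. Pdlim7 was the member with an unadjusted p under 0.05, and its difference was 1.17 without neuronal agonist library 1, with an unadjusted p of 0.0812. The median difference of log2 fold changes, neuronal minus non-neuronal, was 0.05 over the members and 0.04 over all genes tested. The difference was 0.05 (SE 0.55, adjusted p = 1) for Myh11, with a 95% interval from -1.09 to 1.20, and -0.25 (SE 0.93, adjusted p = 0.981) for Actg2, with an interval from -2.20 to 1.69. It was -0.10 (SE 0.78, adjusted p = 0.998) for Des, with an interval from -1.71 to 1.51. For Srf it was 1.38 (SE 1.49, adjusted p = 0.887), and for Myocd 0.05 (SE 1.55, adjusted p = 1), with intervals from -1.69 to 4.46 and from -3.16 to 3.26. These intervals are wide, and a difference inside them was not detectable at this depth and spread. The comparisons of this section share libraries and are therefore not independent of each other.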

How the data were processed

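Sorted nuclei gave RNA that was amplified with the Ovation kit (RNA-Seq System V2) and read as single ends, per the labels' protocols. RSEM 1.3.0, STAR 2.5.2, build GRCm38 and DESeq2 1.10.1 are named in the submitters' processing notes, without their roles. The deposited table holds expected counts per Ensembl gene, which the authors estimated without further scaling, per the file headers. The column paths in that header carry a project name that speaks of an AhR knockout, and the sources used here do not explain it. Groups come from the sample labels. No source used here gives the annotation release or the strand setting.

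Expected counts were rounded to whole numbers. Gene symbols and positions were taken from GENCODE M21 on GRCm38. Genes were kept by edgeR's filterByExpr (minimum count 10, minimum total 15), scaled by TMM and tested with edgeR 4.0.16's robust quasi-likelihood test in R 4.3.3, with Benjamini-Hochberg adjustment over all genes tested and a threshold of 0.05. Each of 4 comparisons was fitted to its own 8 libraries, and the difference of agonist responses to all 16. SE is the log2 fold change divided by the root of F, and 95% intervals are unadjusted. The tests were checked on simulated data with changes of 2, 4 and 8 fold planted in few genes, and they missed most planted changes in every comparison. Of 2-fold changes 0% to 4.69% were recovered. Of 8-fold changes the share was 1.56% for the difference of responses and up to 72.7% for the neuronal agonist response. The data held far more called genes between populations than the simulation, so these shares need not hold there. A gene that was not called is not shown to be unchanged. DESeq2 1.42.0, no low-count filter, library size without TMM, a replicate block, a fit of all 4 groups, and leaving out mitochondrially encoded genes, libraries above 30% of them or each library in turn were tried as alternatives. Means of the phosphatase subunits without 1 library were added after seeing the data. Replicate libraries differed by more than sampling noise.

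The members and lists were chosen with earlier results of these data known. Genes given with full values are 14 central members, the 3 with the largest and the 3 with the smallest population difference, and those called higher or not called in neuronal nuclei. Of each related list, the 2 called genes with the largest change are named, and those called higher were added after their values were seen. The result of 1 related list is not reported here.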

Additional observations from a re-analysis of the deposited data

Results flagged for a closer look

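The highest or lowest library of each group of 4 was set against the others for every member with counts, and a library was singled out where its gap to the nearest of the others exceeded Dixon's 95% critical value as a share of the group's range. This held for 23 of 146 groups tested. About 1 in 20 would be the rate for independent values with a normal spread. The members share libraries and the values were not put on a log scale, so the 23 cannot be judged against that rate. Values are TMM-scaled CPM, and no cause was tested.

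Non-neuronal control library 4 was singled out by this rule as the highest for 11 members, and it was the highest of its group for further members without passing the rule. It held 6853 CPM of Myh11, 1413 CPM of Mylk, 1472 CPM of Acta2 and 1821 CPM of Actg2, where the nearest of the other libraries held 2747, 546, 438 and 542 CPM. It also held 3957 CPM of Tpm1, 802 CPM of Cnn1, 997 CPM of Des, 577 CPM of Synm, 939.6 CPM of Csrp1, 341 CPM of Pgm5 and 413 CPM of Ryr2. The same library had the highest pericyte sum (2058 CPM), fibroblast sum (1608 CPM) and interstitial cell of Cajal sum (386 CPM) of its group, and the lowest epithelial sum (1511 CPM), all by library size.

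Neuronal control library 4 was singled out as the highest for Acta2 at 102 CPM, Actg2 at 129 CPM, Tagln at 44.7 CPM and Cald1 at 122 CPM. Neuronal agonist library 4 was singled out as the highest for Actg2, at 71.6 CPM. Non-neuronal agonist library 3 was singled out as the highest for Actn1 at 315 CPM, Flna at 2001 CPM and Ryr2 at 473 CPM.

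The others were single genes. Ppp1r12b was lowest in neuronal control library 1, at 137 CPM. Ldb3 was highest in non-neuronal control library 3, at 40.4 CPM, Srf in non-neuronal agonist library 1, at 15.1 CPM, and Myocd in neuronal agonist library 3, at 7.01 CPM.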

How the results depend on the processing

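The number of members called between neuronal and non-neuronal nuclei stayed within 1.5 times under every alternative, between 18 and 28 in agonist mice (23 as reported) and between 26 and 32 in control mice (29 as reported), and between 19 and 24 and between 29 and 30 with 1 library left out. No member was called for the agonist response or its difference between populations under any alternative run. The replicate block gave 25, 32, 0, 0 and 0 members called. Deviations of neuronal and non-neuronal libraries of the same number and treatment correlated at -0.0082 to 0.077. Some but not all of these libraries correlated best with their own number. Whether they come from the same mice is not known here, so the correlations cannot settle a pairing, and the reported fits treat the libraries as unpaired. Between agonist and control libraries of the same number the correlations were -0.10 to 0.19.

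Mean member sums by library size moved beyond 1 SD with TMM scaling, to 4629 CPM in neuronal agonist and 5071 CPM in neuronal control libraries, and to 5330.3 CPM in neuronal agonist libraries without mitochondrially encoded genes. With 1 library left out they ranged from 5116 to 5227 CPM in neuronal agonist, 5756 to 6404 CPM in neuronal control, 10253 to 15165 CPM in non-neuronal agonist and 13341 to 22258 CPM in non-neuronal control libraries.

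Of 852 recomputed values of named genes, 773 kept direction and call, 34 passed the threshold anew, 2 lost it (Actg2 in control mice with no filter, at -3.45, and Myl9 in control mice with all 4 groups in 1 fit, at -2.83) and 43 changed sign. The cause was not tested. Without libraries over 30% mitochondrially encoded counts, Ldb3 between populations in agonist mice was 1.44, Des for the non-neuronal agonist response was 0.033, and the difference of responses was -0.13 for Myh11 and -0.74 for Myocd. The difference was -0.032 for Myh11 with DESeq2 and 0.13 for Des with library size only. Myocd for the non-neuronal response was -0.032 with library size only and -0.38 with the replicate block.

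With 1 library left out, Pdlim7 between populations in agonist mice ranged from -0.47 to 1.20 and Sgcd in control mice from -0.53 to 0.11. The non-neuronal agonist response ranged from -0.90 to 0.82 for Myocd, -0.45 to 0.24 for Myh11, -1.08 to 0.17 for Actg2 and -0.92 to 0.39 for Des. The neuronal response ranged from -0.49 to 0.35 for Myh11 and -1.09 to 0.057 for Des. The difference ranged from -0.54 to 0.56 for Myh11, -1.21 to 0.32 for Actg2, -0.99 to 0.43 for Des and -2.43 to 1.34 for Myocd. Totals of 2663738 to 4902303 counts limit the thinly counted members, such as Srf, Myocd, Sgca and Jph2.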
